A study of Mus musculus with 16 samples.

Results

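Early feedback genes are switched on within minutes of a stimulus and then damp the signal that induced them. Levels of 10 genes grouped under this name by family were followed in microglia, the resident macrophages of the brain, from the olfactory bulb (OB). They are the MAP kinase phosphatase genes Dusp1, Dusp5, Dusp6 and Dusp14 and the immediate early response genes Ier2, Ier3 and Ier5. The BTG genes Btg1 and Btg2 and the mRNA decay factor gene Zfp36 complete the group. Whether each of them acts in this way in these cells was not tested. Members were chosen by gene symbol, with earlier results of these data known. Each symbol matched 1 row, so that 10 of the 57010 genes in the count table were taken. All 10 were among the 18227 genes kept by the filter on low counts, which asked for 5 or more counts in 8 or more of the 16 libraries.

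The study compared C57BL/6 J mice (WT) with App NL-G-F mice on the same background, in which mutations linked to Alzheimer's disease are inserted into the App gene itself. All mice were 2 months old, and each of the 4 groups (WT females, WT males, App NL-G-F females and App NL-G-F males) gave 4 libraries. The bulbs were digested with warm papain, and CD11b-bearing cells were pulled out with magnetic beads before total RNA sequencing without ribosomal RNA. The knock-in allele is present in every cell of the mouse, and the controls were bought in rather than described as littermates. Nothing in the labels ties a library to a single animal, so p-values measure the spread between libraries.

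Growth factors, cytokines and damage signals activate the MAP kinases ERK, JNK and p38, which drive transcription of immediate early genes. Phosphatases of the DUSP family remove the activating phosphates from these kinases and so close a negative feedback loop. BTG proteins bind the CCR4-NOT deadenylase, which shortens poly(A) tails, and ZFP36 (tristetraprolin) brings the same enzyme to mRNAs with AU-rich elements, among them inflammatory cytokine mRNAs. In microglia such genes are also known to respond to tissue dissociation, and the time from death to lysis of each library is not given in the sources used here.

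Libraries held between 9052932 and 18117286 counts, with a median of 11926833. Levels are given in CPM (counts scaled to the size of the library) after TMM normalization, and differences as log2 App NL-G-F minus WT with the standard error (SE). Calls rest on edgeR's quasi-likelihood test and need both a false discovery rate (FDR, Benjamini-Hochberg) below 0.1 and a log2 difference beyond 0.5 in either direction. The microglia list (10 genes, with Cx3cr1 between 2894 and 3620 CPM and P2ry12 between 1398 and 1850 CPM) summed to between 18651 and 22164 CPM in the 16 libraries, and none of its genes was called by edgeR, DESeq2 or limma voom or had an unadjusted p under 0.05. Lists for other cell types were low but not at 0. The neuron list summed to between 451 and 492 CPM in WT females and between 583 and 692 CPM in App NL-G-F females, and 6 of its 12 genes had an unadjusted p under 0.05 (24.1% of all tested genes did), but only limma voom called 1 of them (Gad1). Of the 5 neuroblast genes Dcx, and of the 6 oligodendrocyte genes Mog, was called higher in App NL-G-F by all 3 tools. An unadjusted p under 0.05 in edgeR was reached by 3 of the neuroblast and 5 of the oligodendrocyte genes. The oligodendrocyte list summed to 231 to 270 CPM in WT males and 309 to 408 CPM in App NL-G-F males. In females its sums overlapped (231 to 428 CPM in WT and 282 to 413 CPM in App NL-G-F). In WT females the astrocyte list reached 609 to 1167 CPM, the endothelial list 90.1 to 191 CPM and the pericyte and fibroblast list 43.8 to 91.8 CPM, against at most 785 CPM, 106 CPM and 46.9 CPM in the other 3 groups. The part of these cells in the results was not tested, and in bulk RNA a change in the number of cells cannot be told apart from a change per cell.

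Over both sexes, 7 of the 10 genes were lower in App NL-G-F microglia (Dusp1, Ier2, Ier3, Ier5, Btg1, Btg2 and Zfp36), with log2 differences from -1.44 to -0.67. DESeq2 and limma voom called the same 7 and no other. Dusp5, Dusp6 and Dusp14 were not called. Of all tested genes, 4.3% were called lower. The levels of Ier2 and Btg2 did not overlap between the 8 WT and the 8 App NL-G-F libraries, a separation with WT on top that held for 1.15% of the tested genes. Dusp1 and Zfp36 each came close, with 7 WT libraries above every App NL-G-F library.

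**Figure D1:**
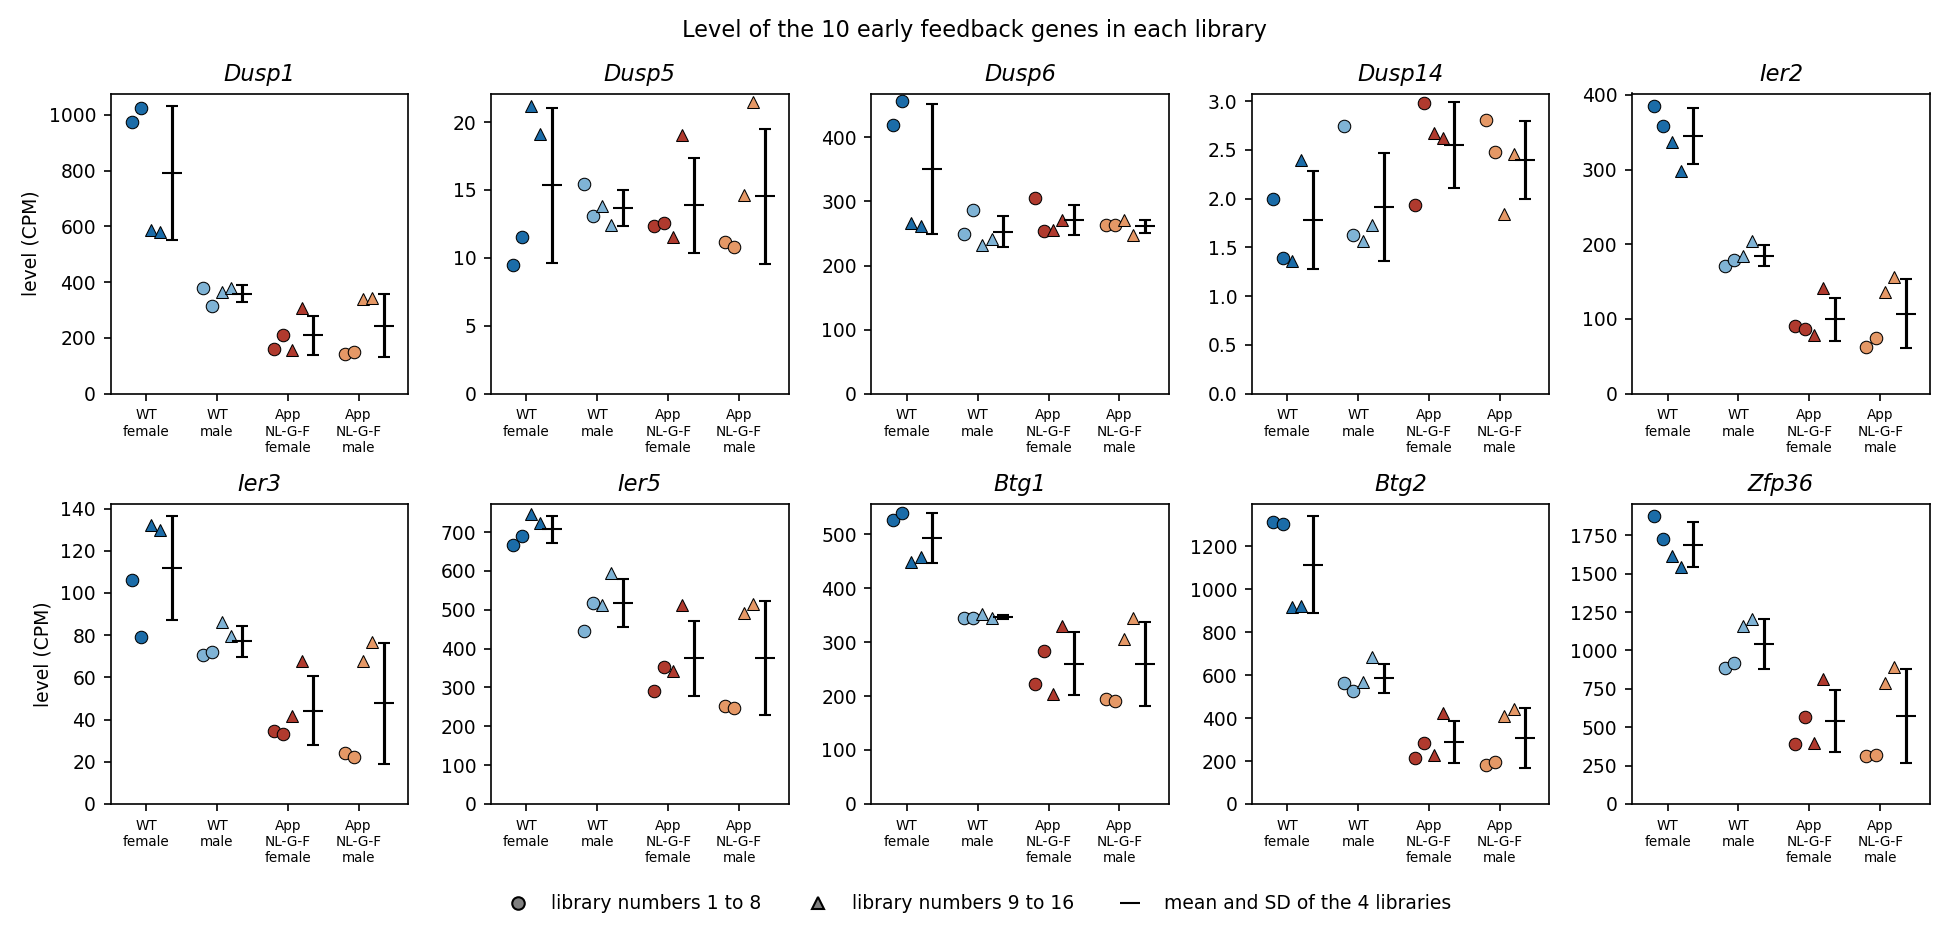
Level of each gene in CPM (vertical axes from 0, 1 scale per gene) in every library, by group. Circles are library numbers 1 to 8, triangles library numbers 9 to 16, and the bar beside each group is the mean and SD of its 4 libraries; for Btg2 and Ier2 every WT library lies above every App NL-G-F library, whereas the groups are mixed for Dusp5 and Dusp6.

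Dusp1, on chromosome 17, encodes a nuclear phosphatase that switches off p38, JNK and ERK. Replicates 1 to 4 gave 974, 1024, 588 and 581 CPM in WT females and 379, 315, 363 and 377 CPM in WT males. In App NL-G-F females they gave 162, 212, 158 and 308 CPM, and in App NL-G-F males 142, 149, 339 and 343 CPM. The WT females stood above all other libraries, and the 2 higher App NL-G-F males lay within the range of the WT males. The difference over both sexes was -1.24 (SE 0.259, FDR = 0.00564), a ratio of means of 2.54 in favour of WT. The upstream sequence of Dusp1 is shown because it holds a full cAMP response element (CRE), the palindrome bound by CREB proteins. The stretch is chr17:26727494-26727646 on the minus strand of GRCm39, from the RefSeq promoter table (built on GRCm38.p6) and found once on its chromosome, and capitals mark the CRE at -143 to -136 and its core (TGACG) at -191 to -187 from the RefSeq start.
Dusp1: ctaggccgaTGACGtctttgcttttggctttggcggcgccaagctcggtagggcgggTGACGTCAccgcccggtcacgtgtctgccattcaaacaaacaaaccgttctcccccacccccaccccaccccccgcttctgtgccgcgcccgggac

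Dusp5, on chromosome 19, encodes a nuclear phosphatase for ERK and was far less abundant. Its levels in replicates 1 to 4 were 9.44, 11.6, 21.2 and 19.1 CPM in WT females and 15.4, 13.1, 13.8 and 12.4 CPM in WT males. They were 12.4, 12.5, 11.5 and 19.1 CPM in App NL-G-F females and 11.1, 10.8, 14.6 and 21.5 CPM in App NL-G-F males. The 4 groups overlapped throughout, and the difference of -0.03 (SE 0.174, FDR = 0.955) was smaller than its error. Its direction turned when library totals alone were used for scaling (0.022) and when any of 8 libraries was left out. Among the WT females, replicates 1 and 2 had the most Dusp1 and the least Dusp5. The promoter of Dusp5 is shown as a contrast, since it holds 2 adjoining serum response elements, the CArG boxes through which ERK signalling acts on early genes, although the gene was not called for genotype. The stretch is chr19:53517376-53517531 on the plus strand of GRCm39 (RefSeq table), and capitals mark the serum response elements at -82 to -73 and -72 to -63 and a CRE core at -55 to -51.
Dusp5: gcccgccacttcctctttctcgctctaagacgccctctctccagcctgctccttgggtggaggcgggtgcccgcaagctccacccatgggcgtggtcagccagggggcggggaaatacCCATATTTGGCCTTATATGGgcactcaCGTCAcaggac

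Dusp6, on chromosome 10, encodes the cytoplasmic phosphatase for ERK. Its levels in replicates 1 to 4 were 419, 457, 266 and 261 CPM in WT females and 249.8, 287, 231 and 242 CPM in WT males. In App NL-G-F females they were 305, 254, 256 and 272 CPM, and in App NL-G-F males 264, 263, 272 and 247 CPM. Only WT females 1 and 2 stood apart from the other 14 libraries. These were also the libraries with the highest astrocyte (978 and 1167 CPM), endothelial (154 and 191 CPM) and pericyte and fibroblast sums (91.8 and 85.1 CPM), and the part of those signals was not tested. The difference over both sexes was -0.16 (SE 0.109, FDR = 0.409).

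Dusp14, on chromosome 11, encodes a small DUSP protein without the kinase-binding domain of the larger ones, and it was the only member whose difference lay above 0. It had between 12 and 40 counts per library. Its level lay between 1.36 and 2.74 CPM in the WT libraries and between 1.85 and 2.99 CPM in the others. The ranges overlapped, with WT male 1 (2.74 CPM) above 6 of the App NL-G-F libraries. The difference was 0.41 (SE 0.171, FDR = 0.143). Without WT male 1 it was 0.53 (FDR = 0.0526) and passed both thresholds.

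Ier2, on chromosome 8, encodes a nuclear protein induced by growth factors. Replicates 1 to 4 gave 386, 358, 337 and 298 CPM in WT females and 171, 179, 185 and 204 CPM in WT males. In App NL-G-F females they gave 91.0, 86.6, 78.6 and 142 CPM, and in App NL-G-F males 62.0, 74.3, 136 and 156 CPM. The 8 WT libraries all lay above the highest App NL-G-F library, and the WT sexes did not overlap either. The difference was -1.29 (SE 0.201, FDR = 0.000744).

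Ier3, on chromosome 17, encodes a short-lived protein that acts on ERK signalling and cell survival. Its levels were 106, 79.3, 132 and 129.6 CPM in WT females and 70.6, 71.8, 86.1 and 79.5 CPM in WT males. They were 34.4, 33.0, 41.6 and 68.0 CPM in App NL-G-F females and 24.0, 22.2, 67.8 and 76.9 CPM in App NL-G-F males. App NL-G-F male 4 alone reached into the WT range, above WT males 1 and 2. The difference was -1.01 (SE 0.237, FDR = 0.0114). Its upstream sequence is shown because it was the only member with an NF-kB site in the window searched. The stretch is chr17:36132405-36132567 on the plus strand of GRCm39 (RefSeq table), and capitals mark the site at -92 to -83.
Ier3: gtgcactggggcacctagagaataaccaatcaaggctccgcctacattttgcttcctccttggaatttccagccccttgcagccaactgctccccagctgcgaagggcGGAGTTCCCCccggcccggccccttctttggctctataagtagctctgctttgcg

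Ier5, on chromosome 1, encodes a partner of heat shock factor and of the phosphatase PP2A. Its levels were 667, 691, 747 and 723 CPM in WT females and 444, 518, 512 and 594 CPM in WT males. They were 291, 352, 343 and 513 CPM in App NL-G-F females and 251.4, 247, 491 and 515 CPM in App NL-G-F males. App NL-G-F female 4 and males 3 and 4 lay within the range of the WT males and below all WT females. The difference of -0.69 (SE 0.155, FDR = 0.0089) was among the smaller ones of the 7 genes.

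Btg1, on chromosome 10, and Btg2, on chromosome 1, encode antiproliferative proteins that bind the deadenylase. For Btg1 the WT females gave 525, 538, 449 and 458 CPM and the WT males 345, 345, 352 and 344 CPM. The App NL-G-F females gave 222, 283, 203 and 331 CPM and the males 194, 192, 307 and 345 CPM, so that male 4 alone touched the lowest WT males. The difference for Btg1 was -0.67 (SE 0.131, FDR = 0.00358). The WT males were closest to each other here, with a coefficient of variation of 1.08%, against 30.2% in the App NL-G-F males.

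Btg2 showed the largest difference of the 10 genes. The WT females gave 1314, 1304, 917 and 923 CPM, and the WT males 562, 526, 566 and 684 CPM. The App NL-G-F females gave 215, 286, 229 and 425 CPM and the males 183, 195, 412 and 444 CPM. No App NL-G-F library reached a WT library, and the difference was -1.44 (SE 0.222, FDR = 0.000723). The WT mean was 849.6 ± 322 CPM and the App NL-G-F mean 299 ± 111 CPM (SD, n = 8). The upstream sequence of Btg2 is shown because, like that of Dusp1, it holds a full CRE. The stretch is chr1:134006894-134007093 on the minus strand of GRCm39 (RefSeq table), and capitals mark the CRE at -166 to -159 and a site for Egr factors at -131 to -123.
Btg2: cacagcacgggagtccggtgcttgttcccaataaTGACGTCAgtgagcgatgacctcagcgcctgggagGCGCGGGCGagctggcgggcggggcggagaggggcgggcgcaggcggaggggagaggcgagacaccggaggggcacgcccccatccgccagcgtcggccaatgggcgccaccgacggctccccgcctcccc

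Zfp36, on chromosome 7, had the highest levels. The WT females gave 1875, 1727, 1615 and 1542 CPM and the WT males 884, 917, 1158 and 1203 CPM. The App NL-G-F females gave 391, 565, 394 and 817 CPM and the males 311, 316, 785 and 891 CPM. Only App NL-G-F male 4 exceeded a WT library, namely WT male 1. The difference was -1.25 (SE 0.226, FDR = 0.0021). A 30-base site at chr7:28078692-28078721 on the minus strand of GRCm39 is shown because it holds a serum response element, like the Dusp5 promoter, in capitals at -58 to -49 from the RefSeq start. The starts disagree for this gene: that of the canonical GENCODE transcript lies 1057 bases further upstream, so that the site is within its first exon, and the length used for its level per kb below is that of the GENCODE transcript.
Zfp36: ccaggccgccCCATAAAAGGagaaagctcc

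Motifs were searched on both strands of the 300-base RefSeq windows (250 bases before the start and 50 after it) of 9 members and of 32851 windows in all. The full CRE (TGACGTCA) was present in 2 of the 9 windows (Dusp1 and Btg2) and in 1.79% of all windows, and its core (TGACG, which lies within the full site) in 4 and in 20.8%. The Egr site (GCGNGGGCG) was present in 2 (Btg2 and Zfp36) and in 5.55% of all windows, and the serum response element in 2 (Zfp36 and Dusp5) and in 1.63%. The NF-kB site was present in 1 (Ier3) and in 4.51%, the TATA box (TATAAA) in 1 (Btg1) and in 13.6%, and the AP-1 site (TGANTCA) in none and in 7.81%. No motif was common to the genes that were lower, and Dusp5 shared the serum response element with Zfp36. Ier2 had no window.

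The members also differed at their 3′ ends. The AU-rich heptamer TATTTAT, which ZFP36 binds in RNA, was found in the 3′ untranslated region of Ier3 (4 copies), Dusp1 (3), Zfp36 itself (3) and Btg2 (1), and in none of the other 6. Of 20854 canonical mouse transcripts, 29.4% had at least 1 copy and 11.2% at least 2. The 4 genes with a copy were all called lower, as were 3 of the 6 without. A 30-base site of each is shown because these are the letters through which the product of 1 member could meet the mRNAs of the others, with the heptamers in capitals and the RNA written as DNA.
Dusp1: gagctggtcctTATTTATttaacacccccc
Ier3: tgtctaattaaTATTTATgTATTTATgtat
Btg2: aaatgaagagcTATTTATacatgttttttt
Zfp36: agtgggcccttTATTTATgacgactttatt
The canonical transcripts of the 10 genes had between 1 and 4 exons (1 for Ier2 and Ier5), against a median of 7 over 21770 protein-coding genes. Divided by transcript length, mean WT levels ran from 484 CPM per kb for Zfp36 through 309.7 for Btg2, 289 for Dusp1, 187 for Ier5, 174 for Ier2, 107 for Dusp6, 83.8 for Btg1 and 82.9 for Ier3 down to 5.85 for Dusp5 and 0.604 for Dusp14.

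Whether the difference was alike in both sexes was asked next. In females the same 7 genes were called lower (4.33% of all tested genes were), and for each of them the 4 WT libraries lay above the 4 App NL-G-F libraries (7.41% of all tested genes). The largest differences in females were -1.95 for Btg2 (SE 0.267, FDR = 0.000662), -1.91 for Dusp1 (SE 0.289, FDR = 0.000969) and -1.79 for Ier2 (SE 0.232, FDR = 0.000512). Zfp36 differed by -1.64 and Ier3 by -1.34, and Btg1 and Ier5 both by -0.92. Dusp6 (-0.37, FDR = 0.141) and Dusp14 (0.50, FDR = 0.258) were not called.

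In males none of the 10 genes was called by edgeR, DESeq2 or limma voom, and 0.165% of all tested genes were called lower. At an unadjusted p under 0.05, 6 of them were lower, while 11.7% of all tested genes reached that p in either direction. Btg2 differed by -0.92 (SE 0.261, FDR = 0.164), Zfp36 by -0.85 (SE 0.293, FDR = 0.256), Ier2 by -0.78 (SE 0.228, FDR = 0.174) and Ier3 by -0.68 (SE 0.323, FDR = 0.425). Ier2 and Btg2 were also the members whose male libraries did not overlap between genotypes (3.18% of all tested genes separated in this way with WT on top). Without App NL-G-F male 3, Ier2 and Btg2 were called in males, and without App NL-G-F male 4, Zfp36 was called as well. The filter mattered too: when none was applied to low counts, edgeR called 5 members lower in males (Dusp1, Ier2, Ier3, Btg2 and Zfp36).

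The difference between the sexes in the genotype effect was itself tested, and no member passed by edgeR, DESeq2 or limma voom (0.0274% of all tested genes were called in either direction). The estimate was below 0 for 9 of the 10 genes, meaning a larger drop in females. An unadjusted p under 0.05 was reached by 4 members, Dusp1 (-1.35, SE 0.398, FDR = 0.395), Btg2 (-1.03, FDR = 0.618), Ier2 (-1.01, FDR = 0.502) and Btg1 (-0.50, FDR = 0.831), and by 5.94% of all tested genes. Without a filter on low counts edgeR called 6 members in this comparison (Dusp1, Ier2, Ier3, Btg1, Btg2 and Zfp36). No other setting tried called a member here. Over both sexes the unfiltered fit left the difference of Ier2 almost unchanged (-1.28 against -1.29), yet its FDR fell from 0.000744 to 9.59e-17. Dusp1 did likewise (-1.23 against -1.24, FDR from 0.00564 to 2.70e-12). Calls made only without the filter thus came without larger differences over both sexes and are given as a description. The data do not settle whether the effect differed between the sexes.

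**Figure D2:**
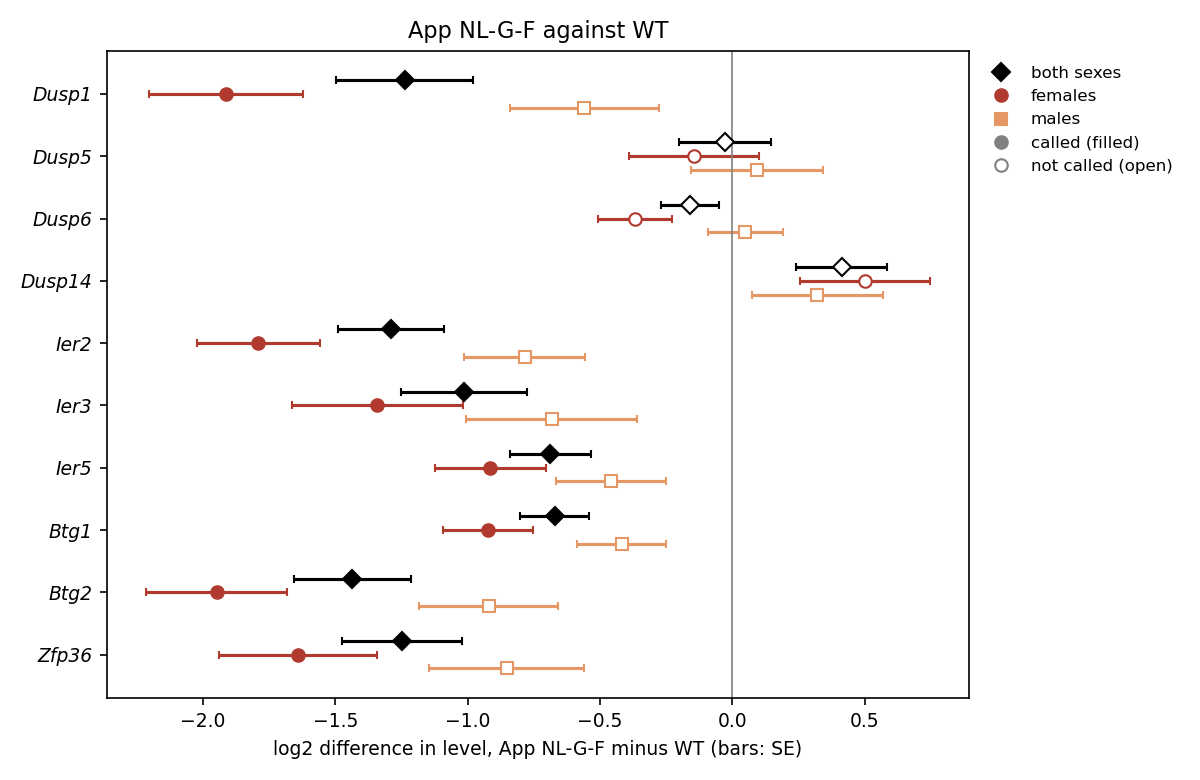
Log2 difference in level, App NL-G-F minus WT (horizontal axis), with SE bars, over both sexes (diamonds), in females (circles) and in males (squares); filled symbols were called. The 7 genes that were lower have filled diamonds and circles and open squares, and in males the values run from -0.92 to -0.42 for them.

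The sexes were then compared within each genotype. In WT, Dusp1 was higher in females by 1.14 (SE 0.283, FDR = 0.0792) and Ier2 by 0.90 (SE 0.226, FDR = 0.0864), while 0.839% of all tested genes were called higher. Btg2 (0.93, FDR = 0.141) and Zfp36 (0.70, FDR = 0.378) were not called. For 6 members (Dusp1, Ier2, Ier5, Btg1, Btg2 and Zfp36) all WT females lay above all WT males, which held for 4.2% of the tested genes. Both calls were lost when either WT female 1 or 2, any WT male, or App NL-G-F female 1 or 2 was left out, with library totals alone and in the robust fit. The replicate block ended the call of Dusp1 and not that of Ier2, and at an FDR of 0.05 neither was called. The astrocyte, endothelial and pericyte and fibroblast sums given with Dusp6 were highest in WT females 1 and 2, and WT female 2 also had the highest olfactory ensheathing cell (219.5 CPM) and oligodendrocyte (428 CPM) sums of the 16 libraries. Their part was not tested.

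In App NL-G-F mice the sexes were close: the 10 differences between females and males ranged from -0.21 (Dusp1, SE 0.282) to 0.09 (Dusp14, SE 0.239). No member was called by edgeR, DESeq2 or limma voom, none had an unadjusted p under 0.05, and 0.0549% of all tested genes were called in either direction. For the 7 genes the means therefore ran in the order WT females, WT males and then both App NL-G-F groups, whose ranges overlapped for every member. WT males and App NL-G-F males overlapped for Dusp1, Ier3, Ier5, Btg1 and Zfp36. Within App NL-G-F, the means of the 7 genes were higher in females in library numbers 1 to 8. In numbers 9 to 16 they were higher in males. For Zfp36 the means of females and males were 478 and 313 CPM, then 606 and 838 CPM (n = 2 each). For Dusp1 they were 187 and 145 CPM, then 233 and 341 CPM. The closeness over all libraries thus averages opposite differences, which were not tested.

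**Figure D3:**
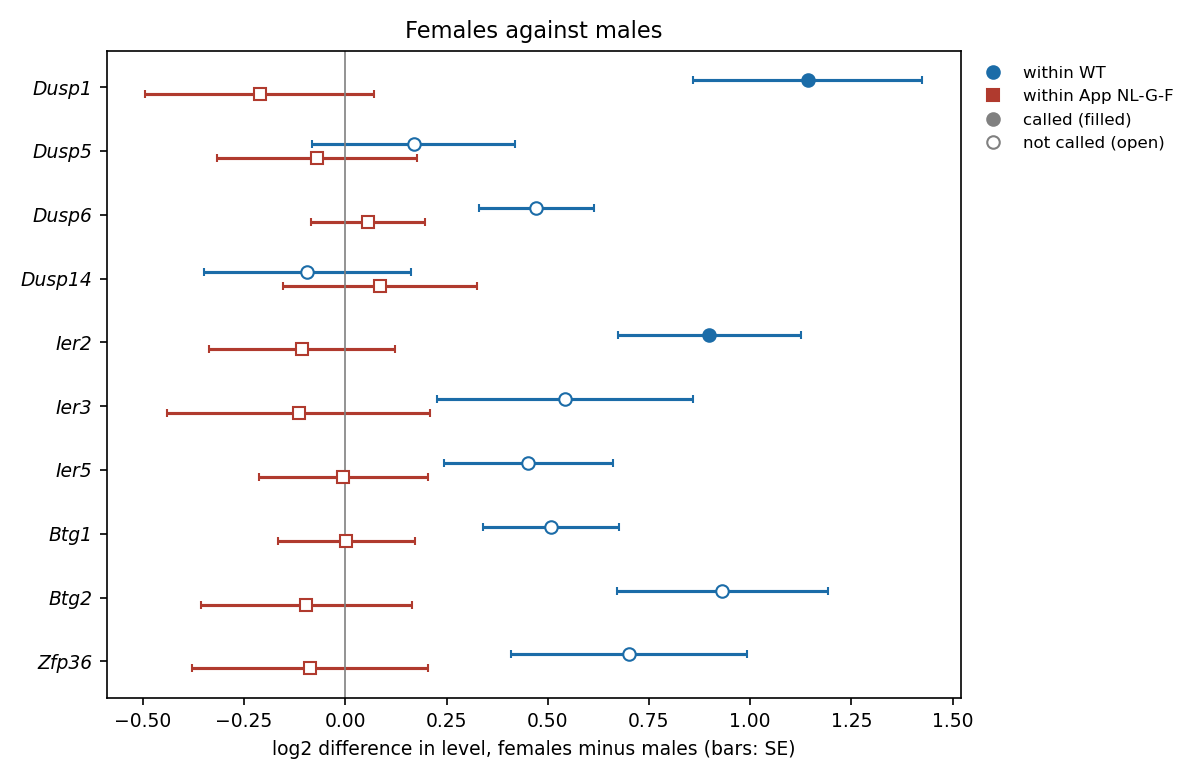
Log2 difference in level, females minus males (horizontal axis), with SE bars, within WT (circles) and within App NL-G-F (squares); filled symbols were called. Within WT, Dusp1 and Ier2 are filled at 1.14 and 0.90, and within App NL-G-F all values lie between -0.21 and 0.09.

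The library names carry numbers, and replicates 1 and 2 of every group are numbers 1 to 8 whereas replicates 3 and 4 are numbers 9 to 16. The labels do not say what the numbers stand for. This split was looked at after the data were seen, since App NL-G-F males 3 and 4 stood above males 1 and 2 for each of the 7 genes (Zfp36 at 785 and 891 CPM against 311 and 316 CPM). In 1 fit with a genotype term for each set of library numbers, the same 7 genes were called lower in libraries 1 to 8 (5.48% of all tested genes), with differences of -2.01 for Btg2 (SE 0.251, FDR = 0.000189), -1.93 for Dusp1 (SE 0.300, FDR = 0.000716), -1.75 for Ier2, -1.75 for Zfp36, -1.54 for Ier3, -1.02 for Ier5 and -0.97 for Btg1. In libraries 9 to 16 no member was called by edgeR (0.329% of all tested genes were called lower), although 7 had an unadjusted p under 0.05 (8.97% of all tested genes did), and DESeq2 and limma voom both called Ier2, Ier3 and Btg2 lower there. There Btg2 differed by -0.96 (SE 0.244, FDR = 0.13), Ier2 by -0.92 (SE 0.227, FDR = 0.123), Zfp36 by -0.88 (SE 0.241, FDR = 0.166) and Dusp1 by -0.63 (SE 0.291, FDR = 0.542).

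The difference in the genotype effect between libraries 1 to 8 and 9 to 16 was tested as well. Estimates were below 0 for all 10 members, and 8 of them had an unadjusted p under 0.05 (8.02% of all tested genes did), with -1.29 for Dusp1 (SE 0.408) and -1.05 for Btg2 (SE 0.342). After adjustment no member passed by edgeR (lowest FDR = 0.586), DESeq2 or limma voom, and 0% of all tested genes were called by edgeR (10 genes by DESeq2, none by limma voom, and 1462 at an unadjusted p under 0.05 in edgeR). Without App NL-G-F female 3, however, 237 genes were called in this comparison, the 7 members among them, and the 7 were also called without a filter on low counts. These sets of library numbers are balanced over the groups, so that genotype and set can be told apart. With the set as a term the 7 genes were called over both sexes as before. The order inside the sets was not balanced in males, nor between the sexes of each genotype. WT males were numbers 1, 2, 9 and 10, and App NL-G-F males numbers 6, 7, 15 and 16. In males, genotype and the order inside a set therefore cannot be told apart. WT females were numbers 4, 8, 12 and 14, and App NL-G-F females numbers 3, 5, 11 and 13. In each set WT males came before WT females, and App NL-G-F females before App NL-G-F males. Within each genotype, sex and the order inside a set thus cannot be told apart either. This limit also holds for the calls of Dusp1 and Ier2 between the WT sexes and for the genotype-by-sex difference. In the males the ratio of the WT to the App NL-G-F mean was 2.88 for Btg2 and 2.87 for Zfp36 in libraries 1 to 8, and 1.46 and 1.41 in libraries 9 to 16.

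**Figure D4:**
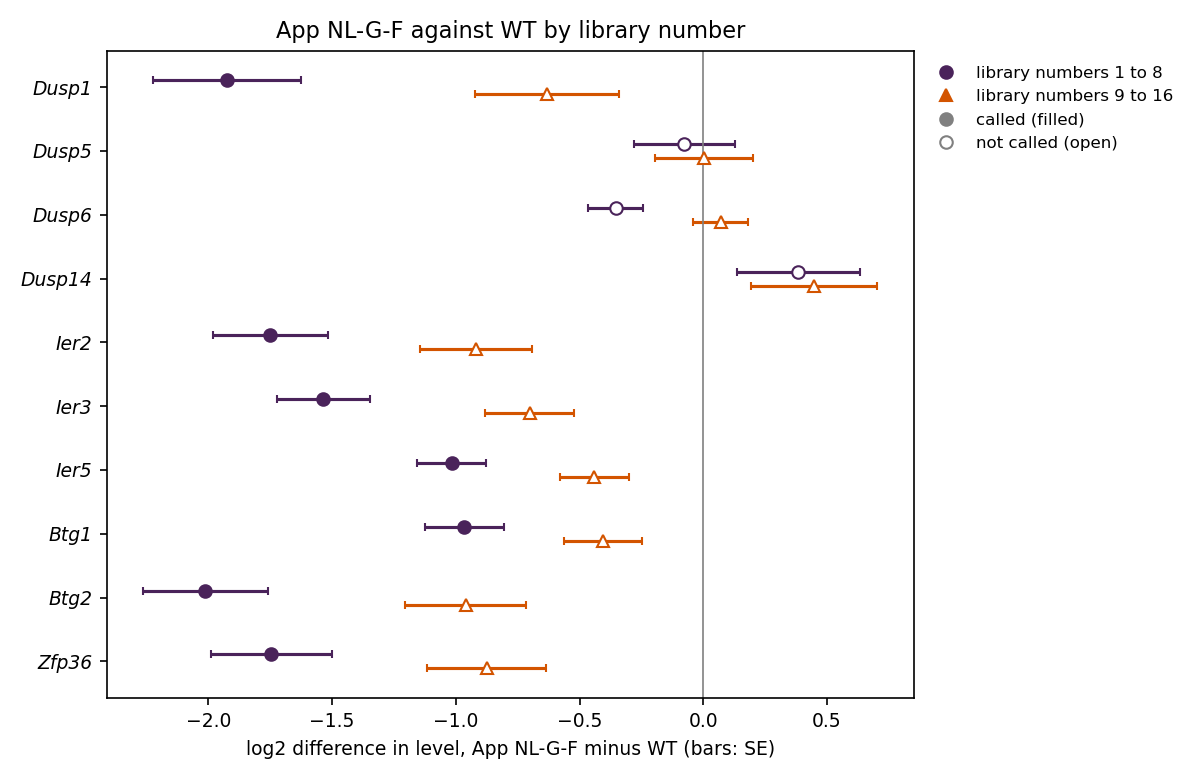
Log2 difference in level, App NL-G-F minus WT (horizontal axis), with SE bars, in library numbers 1 to 8 (circles) and 9 to 16 (triangles) from 1 fit; filled symbols were called. For the 7 genes the circles are filled between -2.01 and -0.97, and the triangles are open between -0.96 and -0.40.

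The 7 genes that were lower rose and fell together from library to library. Over the 16 libraries Pearson's r between their log2 levels lay between 0.857 and 0.989 in the 21 pairs, with Ier2 and Btg2 the closest pair. After the group means were taken out, r lay between 0.653 and 0.977, so that the likeness was also present inside groups. The other 24 pairs, with Dusp5, Dusp6 or Dusp14, had a median r of 0.202 and a range from -0.64 to 0.58. After the group means were taken out, their median was 0.0013 and their range -0.641 to 0.736. The highest of these was Dusp5 with Ier3 (0.736), followed by Dusp5 with Ier5 (0.633), so that the 2 ranges overlapped inside groups. The 16 libraries mix both genotypes, both sexes and different depths, so that r over them also holds the differences between groups, and it is given as a description.

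Of 13314 candidate genes, those most like the mean of the members over the 16 libraries were Atf3 (r = 0.993), Socs3 (0.993), Nfkbiz (0.984), Junb (0.980) and Jun (0.980). Member by member, the most similar gene was Jun for Dusp1, Egr1 for Ier2 (r = 0.991), Ccl3 for Ier3, Junb for Ier5, Socs3 for Btg1, Ccnl1 for Btg2 and the unconfirmed transcript Gm45546 for Zfp36. The other 3 members had nearest genes outside that set: Mylip for Dusp5 (r = 0.896), Lpcat1 for Dusp6 (r = 0.924, but Spearman's rho 0.579, so that it rested on few libraries) and Srcin1 for Dusp14 (r = 0.868).

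The pathways around the members were described from gene lists, beside a median log2 difference of -0.00144 over all 18227 tested genes. These lists too were chosen with earlier results of these data known, so their counts of calls are a description only. The values are over both sexes unless stated. In males edgeR called no gene of any list (0.252% of all tested genes were called in either direction). Of 17 other Dusp genes tested, 2 were called lower, Dusp2 (-0.92, FDR = 0.0332), a nuclear phosphatase of activated immune cells, and Dusp18 (-1.10, FDR = 0.0134), and the median was -0.05. Of 7 other Ier, BTG/TOB and Zfp36 family genes, Tob2 alone was called (-0.54, FDR = 0.0101). Zfp36l1 (-0.39, FDR = 0.00921) and Zfp36l2 (-0.25, FDR = 0.0349), the paralogs of Zfp36, passed the FDR but not the fold threshold. In females 3 of these 7 genes were called lower, Tob2 (-0.65, FDR = 0.0379), Btg3 (-0.63, FDR = 0.0818) and Zfp36l1 (-0.61, FDR = 0.00162), beside 4.33% of all tested genes.

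Other inhibitors of ERK and cytokine signalling behaved unevenly. Of 14 tested, Socs3 (-1.09, FDR = 0.00762) and Cish (-0.66, FDR = 0.0938), both inhibitors of JAK-STAT signalling, were called lower, and Spred3 was called higher (0.51, FDR = 0.0955). The Sprouty genes Spry1, Spry2 and Spry4 were not called. Over both sexes, the kinases that the phosphatases act on, and the kinases above them, showed no call among 21 tested genes by edgeR, DESeq2 or limma voom (4 with an unadjusted p under 0.05 in edgeR), with a median of 0.04. Mapk6 (ERK3, an atypical MAP kinase) had the smallest p of the list and passed the FDR but not the fold threshold (-0.42, FDR = 0.0132), and in females it was called lower (-0.57, FDR = 0.0164). Mapk14 (p38 alpha) differed by -0.12 (FDR = 0.0643) and Map2k1 by 0.04 (FDR = 0.654).

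On the mRNA decay side, none of the 21 genes for deadenylation and decapping was called by edgeR, DESeq2 or limma voom over both sexes (3 with an unadjusted p under 0.05 in edgeR), and their differences lay between -0.23 and 0.19. Cnot1, the scaffold of the CCR4-NOT complex, differed by -0.08 (FDR = 0.276) and Pabpc1, the poly(A)-binding protein, by -0.01 (FDR = 0.934). Cnot7, a deadenylase subunit of the complex (-0.23, FDR = 0.00346), Pan3 (-0.15, FDR = 0.0333), part of another deadenylase, and the decapping factor gene Dcp1a (0.15, FDR = 0.0908) passed the FDR but not the fold threshold. Of 19 well-known AU-rich mRNAs that ZFP36 binds, 10 were called lower, with a median of -0.57, Fos being in this list and in the next. Among them, Tnf fell by 1.17 on the log2 scale (FDR = 0.0274), Ccl3 by 0.98 (FDR = 0.0093) and Nfkbiz by 1.14 (FDR = 0.0089).

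The members also moved with the transcription factors of the same rapid wave: of 19 tested, 14 were called lower and 1 (Egr4) higher, with a median of -0.85. Fos differed by -1.61 (FDR = 0.006), Egr1 by -1.29 and Jun by -0.85. The summed level of this list was 10480 to 13632 CPM in WT females, 6032 to 6847 CPM in WT males, 3303 to 5990 CPM in App NL-G-F females and 2907 to 6557 CPM in App NL-G-F males. Of 13 heat shock genes, Hspa1a (1.70, FDR = 0.0372), Hspa1b (1.93, FDR = 0.0735) and Hsph1 (0.79, FDR = 0.0256) were called higher and Hspa5, a chaperone of the endoplasmic reticulum, lower (-0.57, FDR = 0.006). In males the FDR was 0.627 for Hspa1a, 0.703 for Hspa1b and 0.575 for Hsph1. WT libraries varied widely, with 424 ± 407 CPM (SD) for Hspa1b. The part of tissue handling in these levels was not tested.

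**Figure D5:**
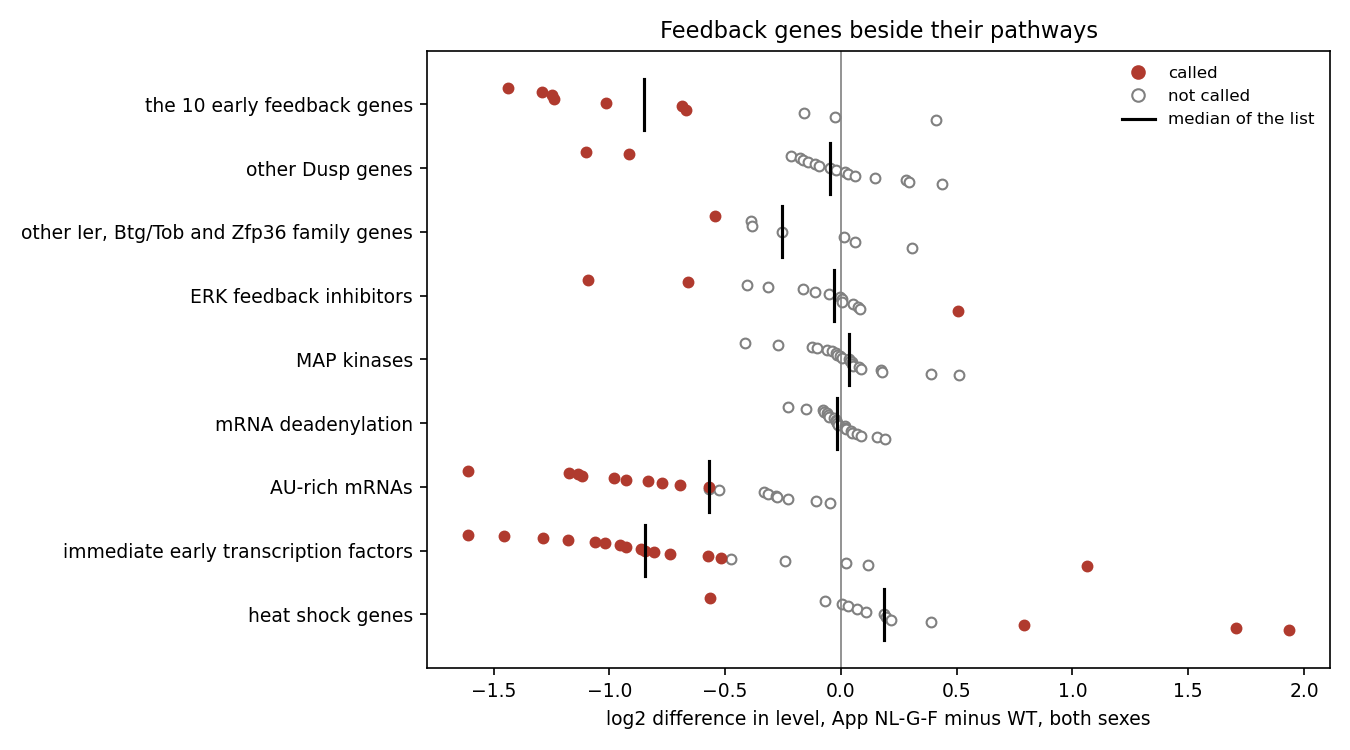
Log2 difference in level, App NL-G-F minus WT over both sexes (horizontal axis), of each tested gene (points) in the 10 early feedback genes and in 8 gene lists (rows). Red points were called and black bars are medians; medians lie at -0.85 for the feedback genes, -0.57 for the AU-rich mRNAs and near 0 for the MAP kinases and the deadenylation genes.

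In the GENCODE annotation, genes on the opposite strand with rows in the count table overlap Dusp5 (Gm50394), Dusp6 (Gm34921) and Zfp36 (Gm44710). Their mean WT levels were 1.33, 0.148 and 0.865 CPM, so that they stood far below Zfp36 and Dusp6, and Gm50394 at less than the level of Dusp5. Gm50394 differed by -0.58 (FDR = 0.118) and Gm44710 by -0.18 (FDR = 0.667), and Gm34921 did not pass the filter. Other overlapping genes have no row in the count table. Gm69473 shares 3276 bases with Ier5 on the same strand. On the opposite strand Gm31974 shares 1728 bases with Btg2, Gm56965 shares 685 with Dusp6 and Gm66231 shares 441 with Ier3. Their levels are not known here, and their part in the levels of these members was not tested. Which strand of the reads was counted is not given in the sources used here.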

How the data were processed

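RNA from CD11b-selected OB microglia was made into 16 stranded total RNA libraries. STAR was used by the authors for alignment to GRCm39, extended with a human App sequence, and for counting against a GENCODE annotation. The deposited values are raw counts per gene, with no normalization, and every column was used. Analyses were run in R 4.3.3 with edgeR 4.0.16, limma 3.58.1 and DESeq2 1.42.0. Only genes reaching 5 counts in 50% of libraries (18227, holding 99.9% of the counts) were kept, scaled by TMM and tested with the edgeR quasi-likelihood test, with sex as a term, over the whole table. Contrasts within and between sexes came from a fit of the 4 groups, and those of library numbers 1 to 8 and 9 to 16 from a fit with a genotype term for each. Calls needed FDR below 0.1 and an absolute log2 difference above 0.5. SE is the difference divided by the square root of F. Log2 levels used for correlations carry a prior count of 2. The scripts were tested on simulated data.

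Members and gene lists were chosen with earlier results of these data known. Genes named outside the members are those called in their list, up to 4 of smallest p per list, or for lists without calls the 2 most abundant in the kinase and deadenylation groups. Btg3, Zfp36l1, Zfp36l2, the Sprouty genes, Egr4, Mapk6, Cnot7, Pan3, Dcp1a, Gad1, Dcx and Mog were named after their values were seen. Gene positions and transcripts are from GRCm39 with a later GENCODE release than the one counted, and promoter windows from the RefSeq table. No 2 libraries held identical counts. With 9052932 to 18117286 counts per library, 3 counts correspond to 0.169 to 0.347 CPM. Alternatives were other scaling factors, filters, thresholds and tools, a replicate block, the library numbers, and each library left out.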

Additional observations from a re-analysis of the deposited data

Results flagged for a closer look

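In groups of 4 libraries, the highest or lowest value was set against the gap to its neighbour as a share of the range (Dixon's ratio). Of 96 groups of members and marker sums looked at, 6 were over the 95% limit, where chance gives about 4.8. For Dusp5, App NL-G-F female 4 (19.1 CPM) lay above the next library at 12.5 CPM, with a ratio of 0.868. For Dusp14, WT male 1 (2.74 CPM) lay above the next at 1.73 CPM, with a ratio of 0.865. For Btg1, WT male 3 (352 CPM) lay above the next at 345 CPM, with a ratio of 0.938, in a group whose whole range was 7.7 CPM wide. The neuron sum of App NL-G-F female 3 was 692 CPM, against 589 CPM in the next library, with a ratio of 0.946. The monocyte sum of App NL-G-F female 2 was 24.7 CPM (next 19.5 CPM, ratio 0.897), and the red blood cell sum of WT male 1 was 3.51 CPM (next 0.672 CPM, ratio 0.833).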

How the results depend on the processing

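The 7 calls over both sexes and the 7 calls in females stood under every scaling, filter, threshold and tool tried and with any 1 library left out (7 to 8 called over both sexes, the eighth being Dusp14 without WT male 1). Replicates 3 and 4 alone, a choice made after seeing the data, gave 0 calls over both sexes by edgeR, with differences of -0.71 for Dusp1, -0.96 for Ier2, -0.72 for Ier3, -0.45 for Ier5, -0.42 for Btg1, -1.01 for Btg2 and -0.93 for Zfp36. In that fit Dusp6 turned to 0.073 and Dusp5 to 0.032, and Dusp5 turned to 0.022 with library totals alone and ranged from -0.151 to 0.0824 with 1 library left out.

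Without a filter on low counts, which raised the tested genes to 39394, 5 members were called in males, 6 in the genotype-by-sex difference, 6 in females against males in WT and 7 in the genotype difference between libraries 1 to 8 and 9 to 16. All these calls come from 1 way of fitting. Over both sexes it gave the called genes nearly the same differences at far lower FDRs. Btg2 went from -1.44 (FDR = 0.000723) to -1.43 (FDR = 1.62e-17), whereas the FDR of Dusp14 rose from 0.143 to 0.306. In males the set of library numbers (1 to 8 or 9 to 16) as a term gave 1 call, and leaving out 1 library gave 0 to 3. Females against males in WT gave 0 calls at FDR 0.05, with library totals alone and in the robust fit, 1 with the replicate block (Ier2), and 0 to 3 with 1 library left out. The genotype difference between libraries 1 to 8 and 9 to 16 gave 0 to 7 with 1 library left out. The causes were not tested.

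The replicate numbers were not taken to pair the libraries. r of same-numbered deviations ran from -0.33 to 0.292 (median 0.034, against 0.0049 and -0.037 for other numbers from the same and from the other set of library numbers), and was over 0.1 in 8 of 24 pairs. Of 16 libraries, 8 matched their own number best, a hint from the data and not the design. How many would do so by chance was not computed. With the replicate block, 7 members were called over both sexes and 7 in females, as without it, and 0 in males. Depth limits Dusp14, with 12 to 40 counts per library.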
